A study of Schizosaccharomyces pombe with 6 samples.

Results

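Centromere 3 of fission yeast, with 25 kb of chromosome arm on each side, was covered by 310 of the 41551 non-control probes of each array. Members were the probes whose name gives chromosome 3 and a tile from 1039400 to 1167400, where a tile is the position written in the probe name and neighbouring tiles lie 300 bp apart. Tiles 1092300 to 1105500 formed the central domain (36 probes), the rest of tiles 1064400 to 1142400 the outer repeats (108 probes), and what lay outside them the left and right flanks (83 probes each). A suffix that many probes of repeats share stood in the names of 119 members, 30 in the central domain and 89 in the outer repeats, and the other 191 had none. Suffixes are written here as f or m, with or without an R before them. No source used here states their meaning.

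A fission yeast centromere has a central core on which the kinetochore is built, inner repeats on both sides of it, and outer repeats beyond these. RNA interference directs the methyltransferase Clr4 to the outer repeats, where it places dimethylation on lysine 9 of histone H3 (H3K9me2), and Swi6, of the HP1 family, sits on the methylated histone and holds cohesin, the ring complex that ties sister chromatids together. Pds5 binds cohesin and regulates its hold on DNA. Clusters of tRNA genes stand at several edges of these domains and are known as barriers to the spread of heterochromatin.

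The series holds 6 tiling arrays of chromatin immunoprecipitation (ChIP). H3K9me2 was mapped on 1 array of pds5Δ cells and 1 array of wild-type cells. A GFP fusion of Pds5 was followed on 1 array of swi6Δ cells, 1 of clr4Δ cells and 2 of wild-type cells, so the tagged Pds5 was present in all 4. Log-phase cells had grown at 30 °C in YEA, a rich medium, before fixation in 3% paraformaldehyde. The Pds5-GFP cultures spent 2 h at 18 °C beforehand, and a protein cross-linker, DMA, was added for them. Nothing in the labels tells whether the 2 wild-type Pds5-GFP arrays had a culture each, so their p-values measure the spread between arrays, which may be technical.

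A level is log2 of ChIP over whole-cell extract, with the median probe of the array at 0. The same dye carried the ChIP DNA on all 6 arrays, so a dye bias may stay in levels. The extract channel lacked the deleted gene on the array whose label names it. Of the probes within 2 kb of pds5, swi6 and clr4, 12, 3 and 5 lay at least 4 below the other arrays on the pds5Δ, swi6Δ and clr4Δ arrays, and none did on the arrays with the gene intact. The wild-type Pds5-GFP pair correlated at r = 0.961 over all probes, which are not independent replicates. The H3K9me2 arrays shared a slide, the swi6Δ array shared one with wild-type replicate 2, and the clr4Δ array had a slide of its own, so its slide and genotype cannot be told apart. Slide numbers come from the file headers.

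The sequences below are shown because they explain how far a probe can be tied to a single place. The first 3 are 60-base words of the reference (RefSeq, assembly ASM294v3, chromosome III), chosen by how often they occur in the genome. They are not the probe sequences, which were not used here.
outer repeat word, III:1073778-1073837, + strand: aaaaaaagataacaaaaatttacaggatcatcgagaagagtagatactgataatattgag
inner repeat word, III:1094101-1094160, + strand: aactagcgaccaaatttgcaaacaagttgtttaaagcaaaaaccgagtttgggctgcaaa
central core word, III:1097701-1097760, + strand: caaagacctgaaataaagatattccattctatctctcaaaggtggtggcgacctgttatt
The outer repeat word occurs 10 times, 2 times each on chromosomes I and II and 6 times on III. The inner repeat word occurs 2 times, both at centromere 3, the second on the other strand at III:1104834-1104893. The central core word occurs 1 time.

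The suffixes followed these copy numbers. Left of tile 1080000 the tiles were laid on the reference with no shift, and from tile 1090000 with a shift of 900 bp to the left. For 124 of 126 and 164 of 165 probes, the suffix then matched whether the words at that place occur more than 1 time. Shifts were scored by this same agreement, so it does not independently check the placement or the meaning of the suffixes. On the left, several shifts from -300 to 250 bp gave the same count. On the right, -850 bp matched 165 of 165 and no shift 157. Probes of suffix m lay over words with a median of 9 copies, those of suffix f over words with a median of 2, and 189 of the 191 probes without a suffix over words with 1 copy. The 19 suffixed probes between those blocks, all in the repeats, were not placed. A value at suffix m in the outer repeats can therefore be a value of the repeats of all 3 centromeres together. The 45 of its 63 probes that were placed lay over words with 5 to 11 copies. The only suffix m probe of the central domain lay over words with 2 copies. A value at suffix f can still be of centromere 3 alone where, as in the inner repeats, its copies lie left and right of the same core. Of the probes without a suffix, 189 of 191 have a single place.

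The tRNA genes that mark the edges of the domains carry the other sequences of interest, since the levels below change across them. The letters GGTTCGA, in capitals where present, are the first part of the B box, the internal promoter element that TFIIIC binds, and were searched on the gene's own strand. They stand in 12 of the 21 tRNA genes of this centromere and in 56.1% of the 171 nuclear tRNA genes of the annotation.
SPCTRNAALA.12, left edge, III:1065044-1065117, − strand: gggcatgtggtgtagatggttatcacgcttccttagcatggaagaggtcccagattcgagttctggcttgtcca
SPCTRNAASP.06, left inner cluster, III:1092437-1092507, + strand: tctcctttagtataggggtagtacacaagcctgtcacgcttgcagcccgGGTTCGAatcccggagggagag
SPCTRNATHR.08, left inner cluster, III:1093083-1093154, − strand: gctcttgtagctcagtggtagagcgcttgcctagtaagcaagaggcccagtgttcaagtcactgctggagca
SPCTRNAPHE.05, right edge, III:1142192-1142264, − strand: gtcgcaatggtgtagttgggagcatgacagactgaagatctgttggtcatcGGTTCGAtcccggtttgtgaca
The inner clusters are mirror copies. SPCTRNAASP.07 on the right has the same 71 bases as SPCTRNAASP.06, and all 6 left and right pairs compared were identical. A probe over the left cluster can thus take up DNA of the right one. The match of letters is a description of the reference and says nothing of binding.

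The first comparison, of H3K9me2, set pds5Δ cells against wild type. The mark stood highest over the outer repeats, lower over the inner repeats and lower still over the core, and stayed above the array median through both flanks. The pds5Δ array lay below the wild-type array at most probes of the outer repeats and the right flank, and on both sides of it in the central domain. Probes of suffix m in the outer repeats ran from 5.50 to 8.0 with a median of 7.01 in pds5Δ, against 6.57 to 8.84 with a median of 7.85 in wild type. Those of suffix f had medians of 6.40 in pds5Δ and 7.04 in wild type. The 19 probes of the outer repeats without a suffix ran from 1.45 to 7.01 in pds5Δ and from 2.17 to 7.10 in wild type. Their medians were 4.96 in pds5Δ (19 probes) and 4.51 in wild type (18 probes), though most probes measured on both arrays were lower in pds5Δ. All of these ranges overlap between the arrays, and the order of the repeat classes was the same on both.

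**Figure D1:**
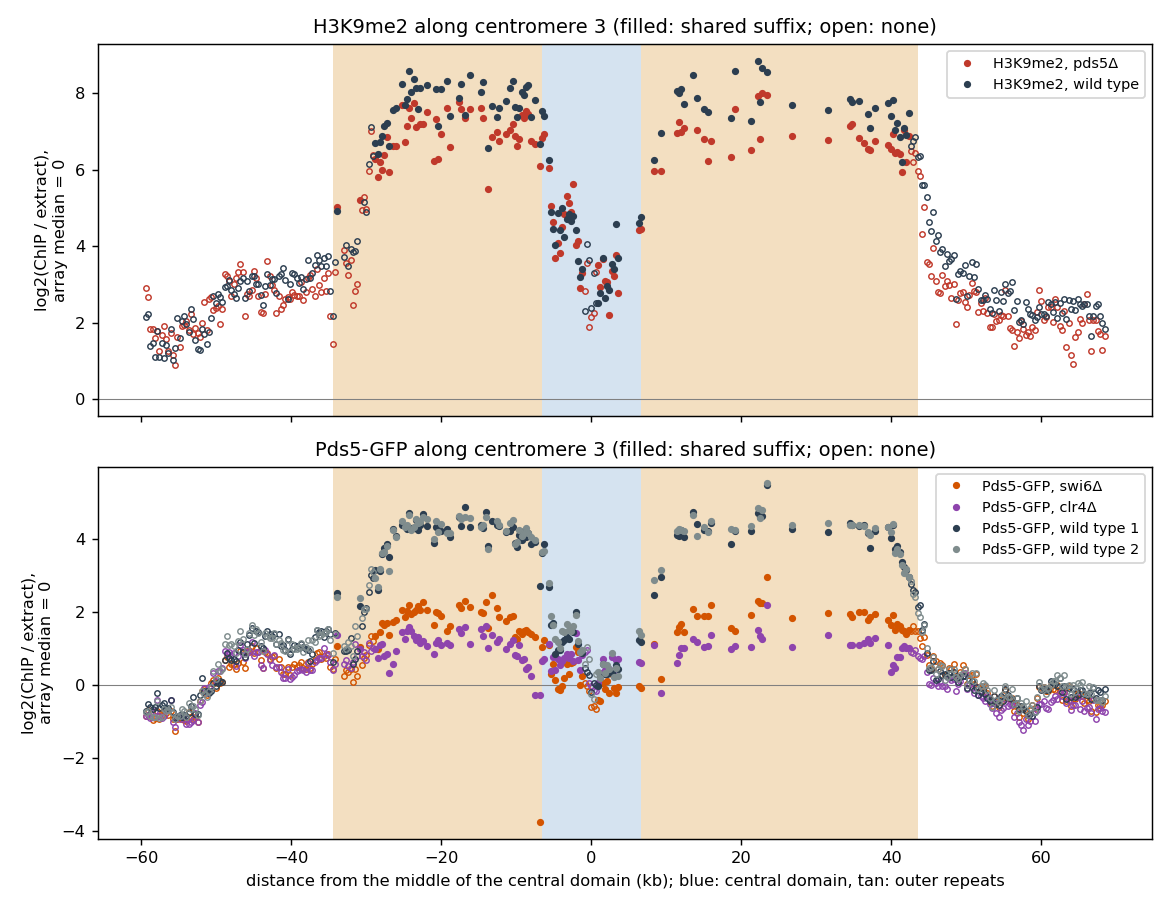
Level of H3K9me2 (top) and Pds5-GFP (bottom) on each array, as log2 of ChIP over extract, against the distance in kb from the middle of the central domain. Filled points share a name suffix and open ones do not. The plateau over the outer repeats, the dip in the central domain and the swi6Δ and clr4Δ points of the Pds5-GFP panel, none above 2.94, can be read off, against wild-type points of up to 5.51.

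Probe by probe, pds5Δ minus wild type had a median of -0.80 at suffix m, where 56 of 56 probes were negative. At suffix f the median was -0.60, with 24 of 25 negative. Without a suffix it was -0.27, with 14 of 18 negative. Among the 4 probes without a suffix on the right, next to the right edge, it was -0.37. Each genotype had a single H3K9me2 array, so no test was possible.

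The extract channel moved with the difference at suffix m. Its median there was 0.88 in pds5Δ and 0.32 in wild type, a median difference of 0.60, while the ChIP channel differed by -0.22. At suffix f the extract differed by -0.09 and the ChIP channel by -0.61. The part of the extract in the result was not tested. Over all suffixed probes of the outer repeats the median difference was -0.77 as a ratio, -0.38 in the ChIP channel alone, -1.45 after loess and -2.46 after the arrays were scaled to one spread.

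A probe met the size rule where the arrays differed by at least 1 and at least 1 of them reached a level of 1. By that rule 27 of 301 members were lower in pds5Δ and 0 were higher, against 0.669% lower and 3.13% higher among all 40193 probes. Of the 27, 11 were in the right flank, 10 at suffix m, 1 at suffix f, 3 at the left edge and 2 in the central domain. The left flank had none. The count was 187 after scaling, 80 after loess and 16 in the ChIP channel alone.

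**Figure D2:**
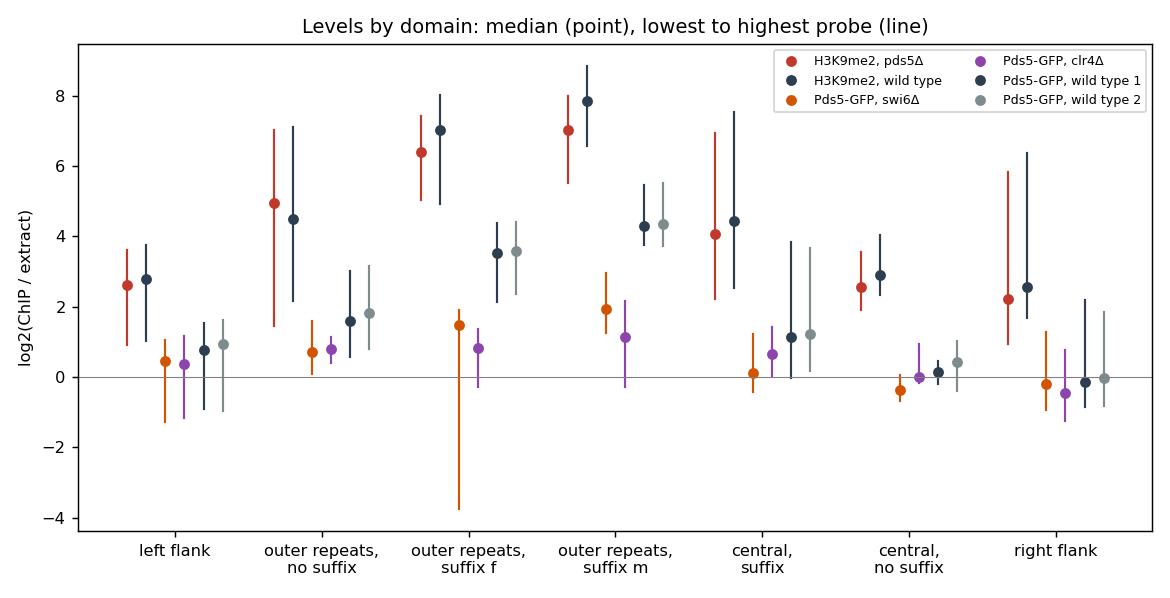
Levels of the 6 arrays by domain and suffix class, as log2 of ChIP over extract, with the median probe as a point and a line from the lowest to the highest probe. The medians at suffix m stand at 7.01 and 7.85 for H3K9me2, and at 1.92, 1.15, 4.28 and 4.36 for Pds5-GFP in swi6Δ, clr4Δ and the wild-type pair.

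The central domain was not even. Its first 3 probes, tiles 1092300 to 1093200, stood at 6.05 to 6.93 in pds5Δ and 6.26 to 7.54 in wild type, as high as the outer repeats beside them. The limit of the domain as set by tile therefore lies inside the plateau. At tile 1093500, laid over the tRNA gene SPCTRNAARG.12 by the shift used, the level was 5.04 in pds5Δ and 4.89 in wild type. The 15 probes from there to tile 1097700, over the inner repeats, had medians of 4.51 in pds5Δ and 4.45 in wild type, with 7 probes lower and 8 higher in pds5Δ. The 16 probes of tiles 1098000 to 1102500 had medians of 3.09 in pds5Δ and 3.14 in wild type. Only 6 of them lack a suffix, with medians of 2.55 in pds5Δ and 2.90 in wild type. The others are of suffix f, laid over words with at least 2 copies. Where those other copies lie is not given here, so these values may not be of this core alone.

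Central values rest on a dim extract. For the 6 central probes without a suffix the extract lay at a median of -3.89 in pds5Δ and -4.12 in wild type, and the ChIP channel at -1.18 and -1.06, so a high ratio there goes with a ChIP signal below the array median. The 2 probes of the size rule were tile 1098600, with 1.90 in pds5Δ and 3.65 in wild type, and tile 1099200, with 2.25 and 3.30. Their neighbour at tile 1099500 ran the other way, with 3.34 in pds5Δ and 2.51 in wild type. Over the whole domain the median difference was -0.19 over 36 probes, with 22 negative, and -0.99 after scaling.

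At the left edge the mark climbed across a run of tRNA genes. The low point was tile 1064400, at the limit itself, with 1.45 in pds5Δ and 2.17 in wild type. The 9 probes without a suffix from there to tile 1067700 had medians of 3.25 in pds5Δ and 3.85 in wild type. Those from tile 1068300 to 1069800 had medians of 5.62 in pds5Δ (6 probes) and 6.14 in wild type (5 probes). Over the 5 probes measured on both arrays the median difference was 0.03, against -0.49 over the 9 before them. By the placement used, SPCTRNAASP.05 and SPCTRNAARG.11 lie between these sets of probes. Tile 1069500, laid just past SPCTRNALEU.11, had 7.01 in pds5Δ and 7.10 in wild type. Both arrays had reached the plateau there. The largest differences at this edge were at tiles 1067100, 1067400 and 1067700, with -1.38, -1.02 and -1.12. They are among the 9 outer probes, whose extract was low, with medians of -2.46 in pds5Δ and -2.41 in wild type.

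On the right the level dropped off in a slope over the first probes of the flank. Tile 1142700 had 5.83 in pds5Δ and 6.36 in wild type. By the shift used, this first flank tile lies on the inner side of the tRNA gene at the right edge. Tile 1143000, laid over SPCTRNAPHE.05 by the shift used, had 4.32 in pds5Δ and 5.60 in wild type. At tile 1143600 the level was 3.59 in pds5Δ and 5.29 in wild type, a difference of -1.70. At tile 1145100 it was 2.81 in pds5Δ and 4.30 in wild type. The pds5Δ array was the lower one at each of these tiles, and 8 of the 33 probes of the first 10 kb met the size rule. All 33 were lower in pds5Δ, with a median difference of -0.63.

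**Figure D3:**
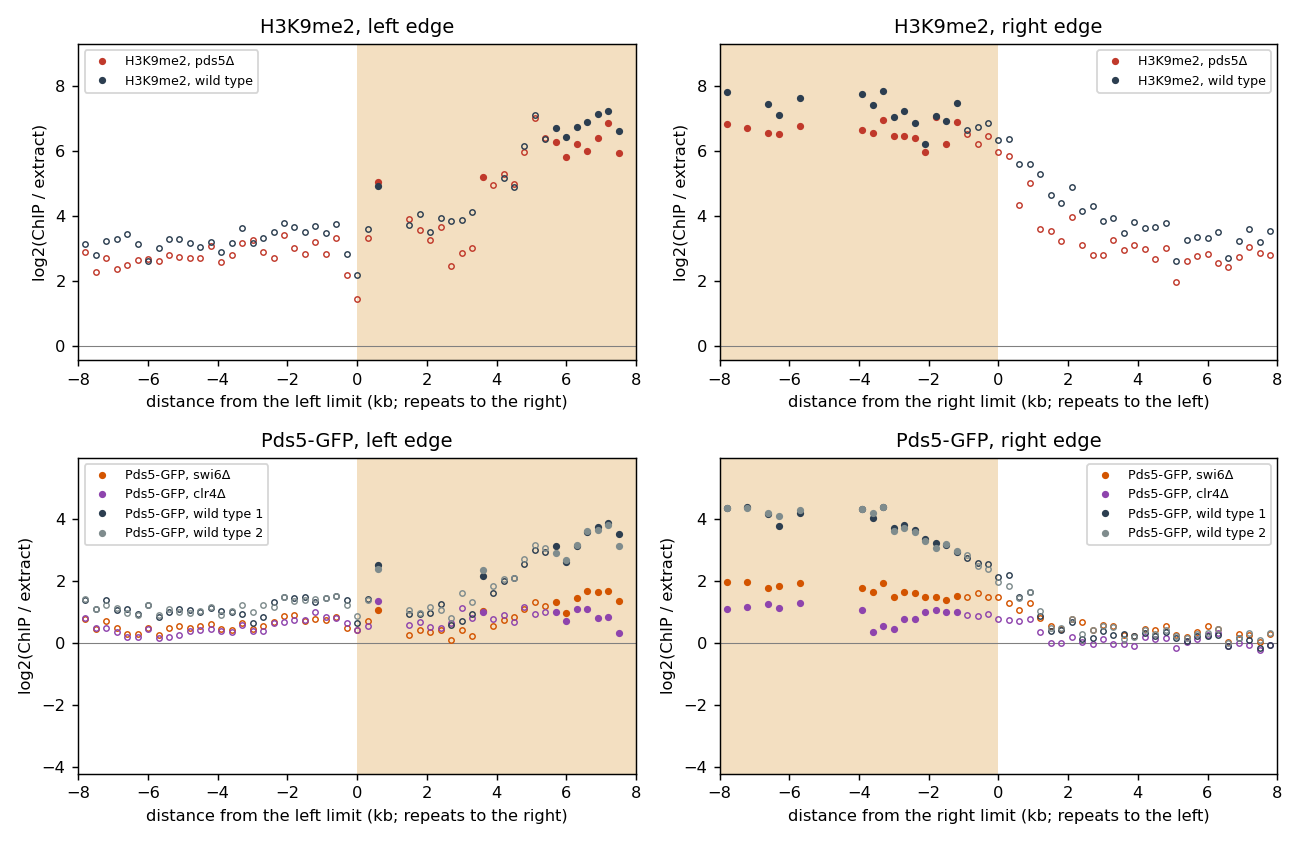
Levels within 8 kb of the left and right limits of the outer repeats, for H3K9me2 (top) and Pds5-GFP (bottom), as log2 of ChIP over extract. The left edge shows a low point of 1.45 in pds5Δ and 2.17 in wild type for H3K9me2 and a climb inwards, and the right edge a slope on which pds5Δ drops below wild type, by 1.70 at most.

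Both flanks carried more H3K9me2 than the array median as far as the probes go. The left flank ran from 0.90 to 3.61 in pds5Δ and from 1.04 to 3.77 in wild type. The right flank ran from 0.93 to 5.83 in pds5Δ and from 1.67 to 6.36 in wild type. No flank probe lay at or below the array median on either array. In 5 kb windows going outwards, the left flank had medians of 2.85, 2.71, 3.1, 2.03 and 1.67 in pds5Δ, against 3.39, 3.12, 2.94, 1.91 and 1.47 in wild type. On the right the windows had medians of 3.15, 2.55, 1.86, 2.21 and 1.78 in pds5Δ, against 4.23, 2.89, 2.57, 2.25 and 2.44 in wild type. The difference on the left was negative in the inner pair of windows, with medians of -0.46 and -0.38, and between 0.12 and 0.15 in the other three. On the right all 5 windows were negative, from -0.97 next to the repeats to -0.14 at 15 to 20 kb.

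The Pds5-GFP arrays ask where Pds5 binds without Swi6 or without Clr4. In wild type Pds5-GFP followed the same plateau as H3K9me2, and in both mutants its median level over the suffixed probes of the outer repeats was lower by more than 2 on the log2 scale. At suffix m the 63 probes ran from 1.24 to 2.94 with a median of 1.92 in swi6Δ, and from -0.28 to 2.17 with a median of 1.15 in clr4Δ. In wild type they ran from 3.76 to 5.46 with a median of 4.28 in replicate 1, and from 3.72 to 5.51 with a median of 4.36 in replicate 2. Neither mutant array overlapped the wild-type pair there. At suffix f the medians were 1.49 in swi6Δ and 0.81 in clr4Δ, against 3.54 and 3.59 in wild type. The mean of the wild-type medians was 4.32 ± 0.05 at suffix m and 3.56 ± 0.04 at suffix f (SD, n = 2).

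Across many probes the arrays were compared with limma on all 41348 probes measured on the 4 arrays, with p-values adjusted over all of them. The 1 residual degree of freedom comes from the wild-type pair, and a mutant with its single array is taken to vary as that pair does. In swi6Δ 148 of 305 members were called lower and 0 higher, against 2.90% and 0.148% of all probes. After normexp background correction 26 members were called higher in swi6Δ. In clr4Δ 154 were called lower and 0 higher, against 3.12% and 0.319%. At an unadjusted p under 0.05, 1 member was higher in swi6Δ and 2 in clr4Δ. The comparisons share the wild-type arrays. All 86 suffixed probes of the outer repeats that were tested fell in swi6Δ, and all 86 in clr4Δ.

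A size rule without a test, a mutant at least 1 below both wild-type arrays, was met by 104 members in swi6Δ, against 1.92% of all probes. In clr4Δ it was met by 100 members, against 1.89%. No member met it in the other direction, against 0.00242% of all probes in swi6Δ and 0.00242% in clr4Δ. The 86 suffixed probes of the outer repeats were among them in both. Counted by limma in the ChIP channel alone, 87 members were lower in swi6Δ and 99 in clr4Δ.

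Tile 1139100, near the right limit, had the largest fall in clr4Δ of the suffix f probes of the outer repeats, where the class medians were -2.01 in swi6Δ and -2.90 in clr4Δ. Its level was 1.92 in swi6Δ and 0.54 in clr4Δ, against 4.38 and 4.40 in wild type. The difference was -2.47 for swi6Δ (SE 0.14, limma adjusted p = 3.02e-11) and -3.85 for clr4Δ (SE 0.14, limma adjusted p = 1.15e-13). The 19 probes of the outer repeats without a suffix ran from 0.08 to 1.60 in swi6Δ and from 0.40 to 1.14 in clr4Δ, against 0.57 to 3.00 and 0.79 to 3.15 in wild type. Their median difference was smaller, -0.89 in swi6Δ and -0.94 in clr4Δ, and 17 and 13 of the 19 were called lower. Among them tile 1069500 had the largest fall in clr4Δ. It had 1.33 in swi6Δ and 0.92 in clr4Δ, against 3.00 and 3.15 in wild type. Its difference was -1.75 for swi6Δ (limma adjusted p = 1.13e-08) and -2.16 for clr4Δ (limma adjusted p = 3.12e-10).

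The single low point of the swi6Δ array was tile 1092000, with -3.76, between neighbours at 1.31 and 1.03. Its spot was flagged on wild-type replicate 2, so it was not tested.

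The median difference over the suffixed probes of the outer repeats was -2.39 for swi6Δ and -3.11 for clr4Δ. Against replicate 2 alone, which shared the slide of swi6Δ, the swi6Δ value was -2.44. The extract channel moved with both values. At suffix m it lay at 2.10 in swi6Δ and 1.97 in clr4Δ, against 0.94 and 1.10 in wild type. At suffix m the ChIP channel alone differed by -1.43 in swi6Δ and -2.17 in clr4Δ. At suffix f the extract differed by 0.00 and -0.04, and the ChIP channel by -2.13 and -2.81. The part of the extract in the result was not tested.

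**Figure D4:**
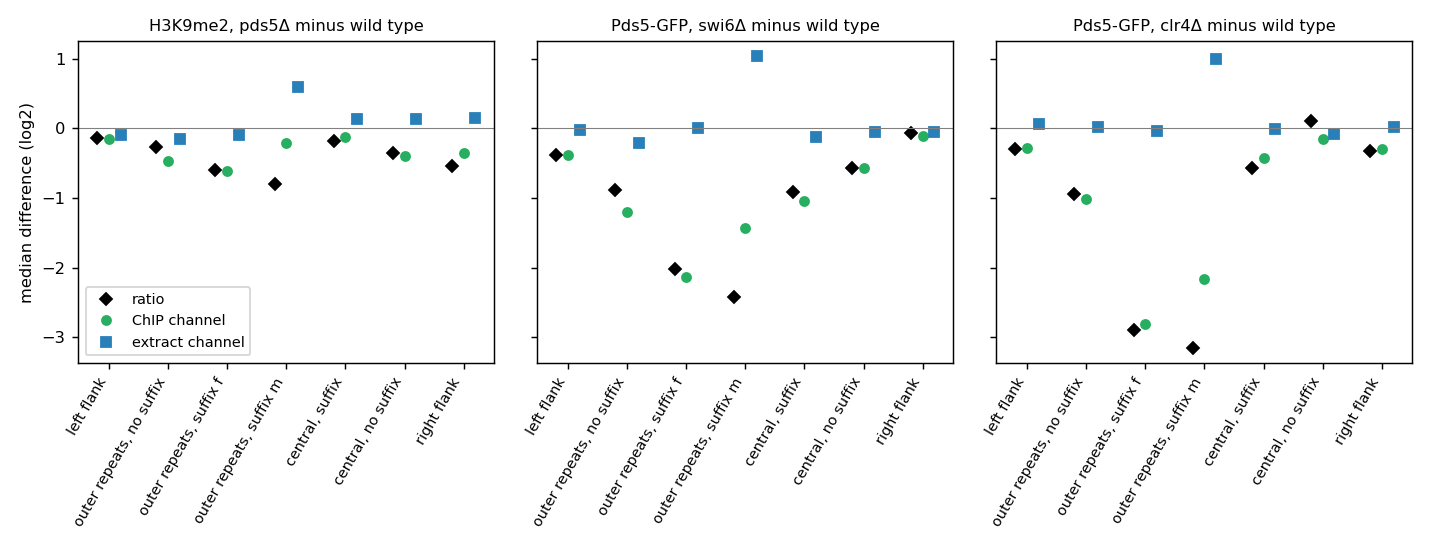
Median difference over probes (log2) by domain and suffix class for the ratio (diamonds), the ChIP channel (circles) and the extract channel (squares), for pds5Δ, swi6Δ and clr4Δ against wild type. The extract stands at 0.60, 1.04 and 1.0 at suffix m and within 0.22 of 0 in the other classes.

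What was left of Pds5-GFP was not in one order of the mutants throughout. At suffix f of the outer repeats the medians were 1.49 in swi6Δ and 0.81 in clr4Δ. Without a suffix they were 0.71 in swi6Δ and 0.78 in clr4Δ, against 1.60 and 1.83 in wild type. Over the whole central domain they were 0.02 in swi6Δ and 0.64 in clr4Δ, against 0.90 and 1.01 in wild type, while its first 3 probes had the higher median in swi6Δ. Each mutant has 1 array, on different slides, so the difference between them was not tested.

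In the central domain, limma called 23 of 34 probes lower in swi6Δ and 15 in clr4Δ. The first 3 probes, at the level of the outer repeats in wild type with a median of 3.60 in replicate 1 and 3.62 in replicate 2, had medians of 1.08 in swi6Δ and 0.71 in clr4Δ. Over the inner repeats, tiles 1093500 to 1097700, the medians were 0.28 in swi6Δ and 0.71 in clr4Δ, against 1.23 and 1.47 in wild type. There 13 of 14 probes fell in swi6Δ and 10 in clr4Δ. Tile 1096500 had 0.63 in swi6Δ and 0.65 in clr4Δ, against 1.45 and 1.60 in wild type, with limma adjusted p of 2.57e-04 and 3.31e-04. At the core, tiles 1098000 to 1102500, the medians were -0.15 in swi6Δ and 0.39 in clr4Δ, against 0.28 and 0.39 in wild type. Of its 15 probes 5 fell in swi6Δ and 0 in clr4Δ.

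The core is where Pds5-GFP was lowest within the centromere in wild type, at the array median or just above. Its 6 probes without a suffix had median levels of -0.38 in swi6Δ and 0.00 in clr4Δ, against 0.15 and 0.43 in wild type. The extract of these 6 lay between medians of -4.37 and -3.75 on the 4 arrays, so these ratios are those of dim spots. The other core probes are of suffix f, laid over words with at least 2 copies, so the core medians may not be of centromere 3 alone. The median difference over the whole central domain was -0.86 for swi6Δ and -0.43 for clr4Δ. After normexp background correction of the median signals it was 0.41 for swi6Δ and -0.17 for clr4Δ, and with the limits moved 1500 bp inwards -0.69 and -0.21.

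Pds5-GFP also showed the edges. Across the left tRNA run, the 9 probes without a suffix of tiles 1064400 to 1067700 had medians of 0.40 in swi6Δ and 0.57 in clr4Δ, against 0.92 and 1.06 in wild type. The next 6 had medians of 0.95 in swi6Δ and 0.91 in clr4Δ, against 2.31 and 2.40 in wild type. All 6 fell in both mutants, and of the outer 9, 7 fell in swi6Δ and 3 in clr4Δ. The gap between the 2 sets of probes was smaller in both mutants than in wild type. The extract of the outer 9 lay at medians from -2.64 to -1.76 on the 4 arrays. Its median difference from wild type was -0.49 in swi6Δ and -0.45 in clr4Δ. On the right, tile 1142700 had 1.28 in swi6Δ and 0.74 in clr4Δ, against 2.18 and 1.85 in wild type, with limma adjusted p of 0.00568 and 5.09e-06. By tile 1143900 the levels were 0.53 in swi6Δ and 0.01 in clr4Δ, against 0.40 and 0.47 in wild type. The swi6Δ array no longer lay below the wild-type pair at that tile.

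In the flanks the median level of Pds5-GFP was below that of the suffixed outer repeats, and higher near the repeats than farther out. The 50 probes of the left flank nearest to the repeats had medians of 0.62 in swi6Δ and 0.65 in clr4Δ, against 1.09 and 1.17 in wild type. The 33 probes farther out had -0.85 in both mutants, against -0.61 and -0.68 in wild type. On the right the nearest 33 probes had 0.36 in swi6Δ and -0.01 in clr4Δ, against 0.21 and 0.30 in wild type. Of those 33 probes 25 were higher in swi6Δ than the wild-type mean and all 33 were lower in clr4Δ, with median differences of 0.08 and -0.22. The same counts over all probes were not made. Over the 83 probes of the left flank the median difference was -0.39 in swi6Δ and -0.30 in clr4Δ. Over the nearest 50 it was -0.505 in swi6Δ and -0.59 in clr4Δ. Over the 83 probes of the right flank it was -0.06 in swi6Δ and -0.33 in clr4Δ. The shoulder of the left flank was present in both mutants, at a lower level.

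The 21 tRNA genes annotated in this stretch include 16 with a member probe over their middle by the shifts used, covered by 14 probes. Of these probes 9 have a shared suffix and 5 do not. Because other shifts fitted as well and tiles lie 300 bp apart, a gene may belong to a neighbouring tile. The 14 probes ran from 2.47 to 6.05 for H3K9me2 in pds5Δ and from 3.49 to 6.88 in wild type. For Pds5-GFP their medians were 1.04 in swi6Δ and 0.99 in clr4Δ, against 2.07 and 2.13 in wild type. Tile 1096800, laid over SPCTRNALEU.12 in the inner repeats, had the highest Pds5-GFP of its stretch. It had 1.04 in swi6Δ and 1.43 in clr4Δ, against 2.00 and 1.90 in wild type.

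Protein-coding genes are found in the flanks. Of 31 that overlap them, 24 had at least 3 probes inside, 13 on the left and 11 on the right. Probes inside a gene were averaged. H3K9me2 was lower in pds5Δ at 8 of the 13 left genes and 10 of the 11 right genes, with median differences of -0.11 and -0.62. Pds5-GFP was lower at all 13 left and 7 of 11 right genes in swi6Δ, and at 12 of 13 left and 11 of 11 right genes in clr4Δ. The median differences on the left and right were -0.32 and -0.06 in swi6Δ, and -0.24 and -0.34 in clr4Δ. These counts are of signs only, and the same counts over all genes were not made. Some of the differences lay within the wild-type spread, as at rpa12 with -0.16 in swi6Δ (wild-type SD 0.17, n = 2).

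The largest H3K9me2 difference was at ppc1, the gene next to the right edge, which encodes an enzyme of coenzyme A synthesis. The level was 3.48 in pds5Δ and 4.68 in wild type. The next were lsg1, for a GTPase known from budding yeast for ribosome assembly, with 1.51 in pds5Δ and 2.36 in wild type, and tip41, a regulator of type 2A phosphatases, with 2.53 and 3.22. The gene set9, for the H4K20 methyltransferase, had 1.75 in pds5Δ and 2.43 in wild type, and mrpl12, for a mitochondrial ribosomal protein, had 1.76 and 2.41. The genes lsg1 and mrpl12 share probes. The gene cbp3, known from budding yeast for assembly of the respiratory chain, was the second measured gene from the right edge and had 3.01 in pds5Δ and 3.63 in wild type.

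On the left the genes nearest to the repeats were chk1, for the DNA damage checkpoint kinase, and meu27, a gene known for its rise in meiosis, which overlap each other in the probes they hold. For H3K9me2 chk1 had 2.92 in pds5Δ and 3.37 in wild type, and meu27 had 3.04 and 3.53. For Pds5-GFP chk1 had 0.64 in swi6Δ and 0.60 in clr4Δ, against 1.19 and 1.23 in wild type, and 8 and 12 of its 15 probes were called lower.

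The same 5 left genes led both Pds5-GFP comparisons, gid1, ubc11, chk1, meu27 and gyp2. The gene gid1, for a subunit of the GID ubiquitin ligase (described in budding yeast), had 0.58 in swi6Δ and 0.48 in clr4Δ, against 1.22 and 1.18 in wild type, and all 6 of its probes were called in both. The gene ubc11, for the ubiquitin-conjugating enzyme of cyclin destruction, had 0.45 in swi6Δ and 0.28 in clr4Δ, against 1.04 and 1.03 in wild type, with 3 and 5 of 5 probes called. The gene gyp2, for a GTPase-activating protein, had 0.84 in swi6Δ and 0.81 in clr4Δ, against 1.31 and 1.35 in wild type. At ppc1 on the other side Pds5-GFP had 0.64 in swi6Δ and 0.11 in clr4Δ, against 0.49 and 0.60 in wild type.

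**Figure D5:**
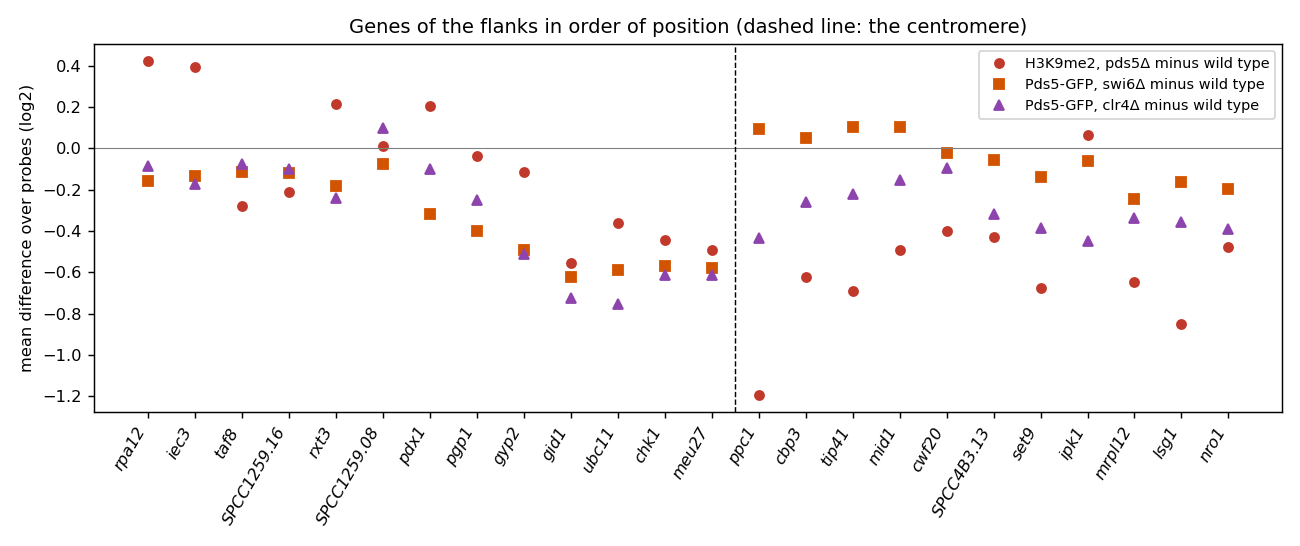
Mean difference over probes (log2) at the 24 flank genes in order of position, for H3K9me2 in pds5Δ (circles) and Pds5-GFP in swi6Δ (squares) and clr4Δ (triangles), each minus wild type. The lowest H3K9me2 point is ppc1 at -1.20, and gid1 and ubc11 hold the lowest Pds5-GFP points, at -0.63 in swi6Δ and -0.75 in clr4Δ.

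Levels of wild-type H3K9me2 and of Pds5-GFP went together along the region. The mark was not mapped in swi6Δ or clr4Δ cells, so their Pds5-GFP was set against the mark of other cells. Over the suffixed members, wild-type H3K9me2 correlated with Pds5-GFP at r = 0.77 in swi6Δ (113 probes) and 0.50 in clr4Δ (113 probes), against 0.97 in both wild-type arrays (110 and 111 probes). Over members without a suffix (190 probes) r was 0.80 in swi6Δ and 0.67 in clr4Δ, against 0.80 and 0.81 in wild type. Over all probes of the arrays r was 0.20 in swi6Δ and 0.13 in clr4Δ, against 0.55 and 0.56 in wild type. Each set of members pools several domains, so its r includes the steps between them. Neighbouring probes share fragments of 500 to 1000 bp and the suffixed ones share sequence, so the points are not independent and no p is given.

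Set beside the other centromeres, delimited by the run of suffixed names, the many-copy probes gave the same values. Suffix m at centromeres 3, 1 and 2 differed by -2.42, -2.47 and -2.40 in swi6Δ and by -3.15, -3.21 and -3.26 in clr4Δ. These probes share sequence between the centromeres, and those of the flanks do not. Wild-type H3K9me2 had medians of 2.83 and 2.61 in the left and right 25 kb of centromere 3, against 2.73 and 2.80 at centromere 1 and 1.90 and 2.09 at centromere 2. Wild-type Pds5-GFP (replicate 1) had 0.84 and -0.13 at centromere 3, 1.02 and 0.33 at centromere 1, and -0.23 and -0.18 at centromere 2. These are medians of single arrays and were not tested.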

How the data were processed

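Each array carried ChIP DNA in Cy5 and whole-cell extract DNA in Cy3, both amplified by random-primed PCR, on all 6 arrays in the same dye orientation, per the labels' protocols. The processed signals are intensity values, background-subtracted and dye-normalised, made with Agilent Feature Extraction 12.0.3.1 per the file headers. The deposited scanner ratio of each spot is a log10 value per the file headers, with Cy5 on top. The median spot and background signals are uncorrected intensity values per the file headers. The deposited log2 table lay within 0.01 of the scanner ratio for 41243 or more of 41251 probes on every array. Its medians ran from -0.209 to -0.0544, so it is ChIP over extract and not centred.

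Here log2 of processed Cy5 over Cy3 was centred on each array's median, with control and outlier-flagged spots left out and no loess or quantile step. Members include 7 flagged spots on the H3K9me2 wild-type array and 3 or fewer on the others. limma 3.58.1 in R 4.3.3 was fitted across all probes (1 residual and 18.5 prior degrees of freedom, Benjamini-Hochberg threshold 0.05). On simulated data with 41348 probes it recovered 99 of 100 probes changed by 1 for swi6Δ and 100 of 100 for clr4Δ, with 13 and 9 false calls. The simulated arrays all had the spread of the wild-type pair (SD 0.139) and no slide effect. Their recovery thus cannot tell whether a lone mutant array varies as that pair does. Region medians had no test, since 2 arrays against 1 cannot give an exact permutation p below 0.333. No source used here gives the build of the tiles. Coordinates printed with a sequence are those of ASM294v3. Genes were laid on tiles by the shifts given above. The extract signal followed base composition best at 190 bp on the left arm and -820 bp on the right arm. Genes named were the 5 largest differences in each comparison and the 2 measured genes nearest each edge. The normexp alternative (offset 50) used median signals, since no mean signals were in the files used. Members and lists were chosen with earlier results of these data known. The number of arrays limits the precision.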

Additional observations from a re-analysis of the deposited data

Results flagged for a closer look

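The extract channel, which the comparisons use only as the denominator, was higher in each mutant than in wild type at the outer repeat probes of suffix m. Relative to the array median it stood at 0.88 on the pds5Δ array, against 0.32 in wild type. It stood at 2.10 on the swi6Δ array and 1.97 on the clr4Δ array, against 0.94 and 1.10 in wild type. At suffix m of centromere 1 the extract medians were 2.08 in swi6Δ and 2.08 in clr4Δ, against 0.92 and 1.05 in wild type. The cause was not tested. No group has 4 or more arrays, so single arrays were not examined as outliers.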

How the results depend on the processing

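Of 154 alternative values of 17 results, 110 stayed within the spread of the wild-type Pds5-GFP pair (which also stands in for H3K9me2, which has no replicate) or within 1.5 times the count. Of 102 alternative medians, 100 kept their sign. The cause of the changes was not tested. The H3K9me2 difference of the outer repeats without a suffix was 0.45 as a difference of medians (19 probes in pds5Δ and 18 in wild type), and the swi6Δ difference of the central domain was 0.41 after normexp. For H3K9me2 in pds5Δ, the central domain had -0.99 after scaling and -0.31 as a difference of medians. Its suffixed outer repeats had -0.83 with normexp, -1.45 with loess, -2.46 with scaling, -0.38 in the ChIP channel, -0.74 as a mean and -0.84 as a difference of medians. Those without a suffix had -1.50 with scaling and -0.47 in the ChIP channel. For swi6Δ the central domain had -0.74 with loess, -0.94 as a difference of medians and -0.69 with limits moved inwards. Its suffixed outer repeats had -2.76 with normexp, -2.28 with loess, -2.28 with scaling, -1.54 in the ChIP channel and -2.33 as a mean, and those without a suffix -1.14 with normexp and -1.21 in the ChIP channel. For clr4Δ the central domain had -0.17 with normexp, -0.31 as a difference of medians and -0.21 with limits moved inwards. Its suffixed outer repeats had -3.25 (normexp), -2.88 (loess), -3.17 (scaling), -2.27 (ChIP channel), -3.04 (mean) and -3.15 (difference of medians), and those without a suffix -0.70 with limits moved inwards. Leaving out either wild-type replicate gave -0.89 to -0.73 for the swi6Δ central domain, -2.44 to -2.37 for its suffixed outer repeats and -0.92 to -0.83 for those without a suffix. In clr4Δ it gave -0.47 to -0.32, -3.14 to -3.12 and -1.06 to -0.86. Probes lower by the H3K9me2 size rule numbered 80 with loess, 187 with scaling and 16 in the ChIP channel, and 1 probe was higher in the deposited table and 1 in the ChIP channel. Probes called lower by limma in the ChIP channel alone numbered 87 in swi6Δ and 99 in clr4Δ, and 26 were called higher in swi6Δ after normexp. The alternative of keeping flagged spots was chosen after seeing the data. No analysis paired by replicate number was possible, because only the wild-type Pds5-GFP arrays carry such numbers. By slide, the H3K9me2 arrays form a pair, and so do swi6Δ and wild-type replicate 2. Dim extract spots limit the central core, and the extract was also low at the outer left edge.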
